A study of Mus musculus with 10 samples.

Results

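Transcripts of 7 transcription factor genes of odontoblasts and bone were followed in dental mesenchyme from lower incisors of mice: Runx1, Runx3, Sp7, Sp6, Nfic, Klf4 and Sox9. They belong to a list of 8 genes, chosen by name for their roles in these tissues and with earlier results of these data known. The remaining gene, Runx2, is not analysed here. A gene was taken where the probe-to-gene table gives a probe set exactly its symbol, and where it had several, its brightest one by the mean of all 10 arrays stands for it. The 7 genes have 23 of the 45101 probe sets of the value table, and they are 7 of 18193 genes measured in all. All mice were wild-type C57BL/6J at postnatal day 60. In the denervated group (n = 5 arrays) the inferior alveolar nerve of that side had been resected 2 weeks before. The contralateral group (n = 5 arrays) came from the lower incisors of the side that was not operated, in animals that carried the resection on the other side. Sex is labelled as not determined. Without a sham-operated group, effects of surgery and of denervation cannot be told apart, and a response on the unoperated side would go unseen.

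The mouse incisor grows throughout life. Its odontoblasts, the cells that lay down dentin, are renewed from mesenchymal progenitors at the proximal end of the tooth. Runx proteins bind DNA as a pair with the subunit Cbfb and control the fate of blood, bone, epithelial and sensory nerve cells. Sp7, also called osterix, is required for osteoblasts, Nfic for the roots of mouse molars, and Sp6, also called epiprofin, for the enamel epithelium. Klf4 is a zinc finger factor of cells that leave the cell cycle, including young odontoblasts, and Sox9 is the main factor of cartilage and of several neural crest derived progenitors.

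The intensities are on a log2 scale, and the median of an array lay between 1.48 and 1.54. Each probe set has its own brightness, so a level is compared between arrays and not between genes. Genes with a mean under 2, which is close to the floor of the scale, made up 40.7% of the total, while the 7 genes lay between the 64.8th and the 97.9th percentile of gene means. The label of the tissue was checked on marker genes: the 6 odontoblast markers averaged 10.64 to 11.54 log2 units per array in the denervated and 11.43 to 11.55 in the contralateral group. Markers of the enamel epithelium were high as well, with 6.36 to 9.21 in the denervated and 8.68 to 9.30 in the contralateral group, so the samples hold epithelial RNA. Denervated arrays 2 and 3 stood apart. Array 3 was lower than its contralateral partner by -2.32 in the mean of the 14 measured epithelial markers. Array 2 was lower by -0.91 in that of the odontoblast markers and higher by 2.61 in that of 7 Schwann cell markers. Mean differences of the members, and those of other genes that move by over 1.5 times or turn without these arrays, are also given without them. Each sample is bulk tissue, in which fewer cells of a type and less RNA per cell cannot be told apart.

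No member passed the test between the groups. Runx1, Sp6 and Klf4 were lower on average in the denervated incisors, each in 4 of 5 mice, and Sox9 was higher in 4 of 5 mice. Sp7, Nfic and Runx3 had mean differences of 0.02, 0.10 and 0.06 log2 units and went different ways in different mice. At an adjusted p under 0.05 limma's test across all genes called 0 of the 7 members and 0% of the 18193 genes, without a mouse term and likewise with the mouse as a block. At an unadjusted p under 0.05 there was 1 member, Sox9, against 6.21% of all genes, and with the mouse as a block there were 2, Sp6 and Sox9, against 9.92% of all genes. In 0 of the 7 members did all 5 mice differ in the same direction, which 10.4% of all genes did. Denervated and contralateral arrays overlapped in each of the 7 members, and 0.951% of all genes had groups that did not overlap. A positive difference is higher in the denervated incisors throughout.

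**Figure D1:**
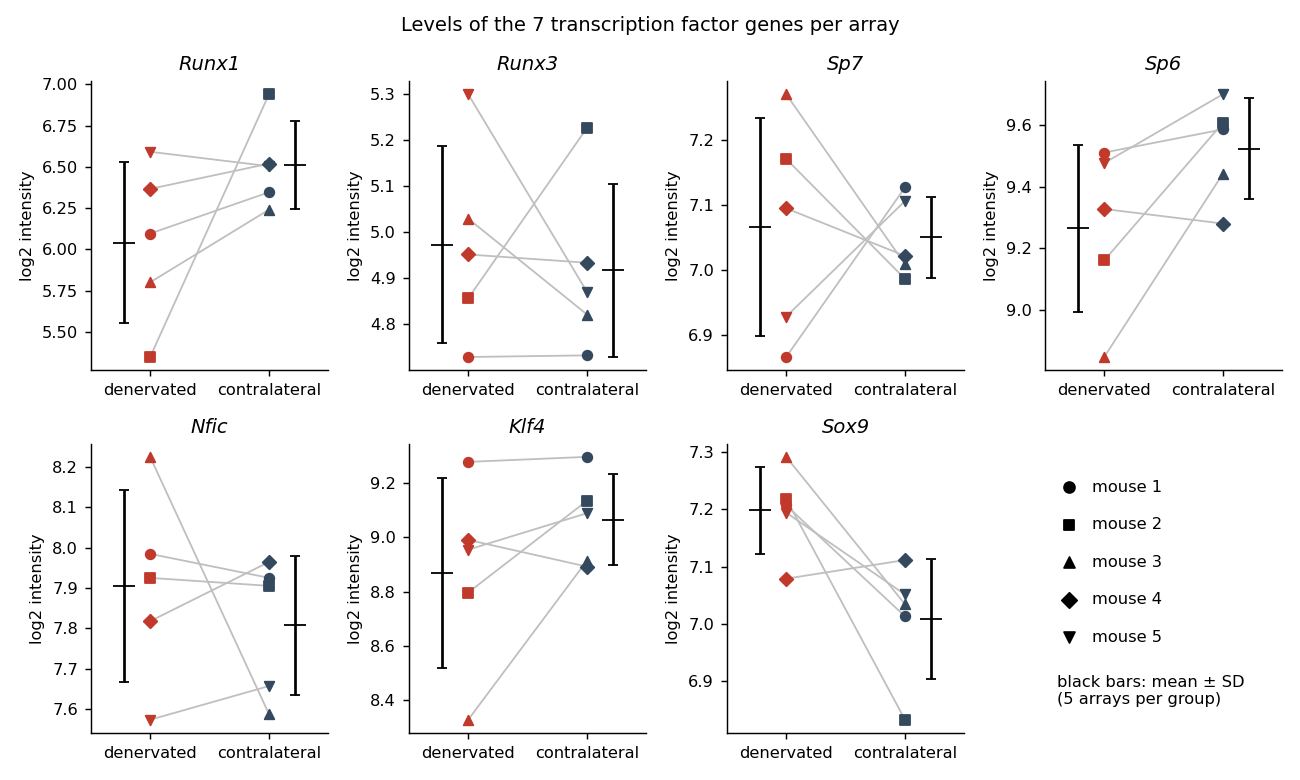
Log2 intensity (vertical axes, a separate range for each gene) of the 7 genes on the 5 denervated arrays (left, red) and the 5 contralateral arrays (right, blue); lines join arrays of equal number, and black bars give the mean and SD of a group. Runx1 of mouse 2 has the steepest line, 5.35 denervated against 6.94 contralateral, and 4 of the 5 denervated values of Sox9 lie above every contralateral value.

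Runx1, the Runx factor of blood stem cells that is also active in the epithelium of hair follicles, had log2 values of 6.10, 5.35, 5.80, 6.37 and 6.59 in denervated mice 1 to 5. The contralateral incisors of the same mice had 6.35, 6.94, 6.24, 6.52 and 6.50. Denervated arrays 1, 2 and 3 lay below all contralateral arrays, and arrays 4 and 5 lay within the contralateral range. The group means were 6.04 ± 0.49 denervated and 6.51 ± 0.27 contralateral (SD, n = 5 each). The difference of -0.47 ± 0.22 (SE) is a fold of 0.722, with a 95% confidence interval of -0.95 to 0.01 and an adjusted p of 0.790 by limma. An exact two-sided permutation over the 10 arrays gave p = 0.103. Mouse 2 carried much of the mean: its difference was -1.59, and those of mice 1, 3, 4 and 5 were -0.25, -0.44, -0.15 and 0.09. Without denervated array 2 the difference was -0.30, and without denervated arrays 2 and 3 it was -0.16.

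The other probe sets of Runx1 were read as a check. Of its 6 probe sets 3 had a mean of 4 or more, and all 3 were lower on average in the denervated incisors. The second of them had 5.90, 5.56, 5.42, 5.92 and 6.15 denervated and 6.14, 6.55, 6.09, 5.78 and 6.41 contralateral in mice 1 to 5, a mean difference of -0.40. The third had 5.22, 4.33, 4.54, 5.17 and 5.33 denervated and 5.29, 5.72, 5.32, 5.25 and 5.47 contralateral, a mean difference of -0.49 with the denervated side lower in 5 of 5 mice. In all 3 the denervated arrays of mice 2 and 3 were the lowest of the 10 arrays. The remaining 3 probe sets had means below 2, and their differences lay between -0.23 and 0.01.

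Runx3, a Runx factor of cytotoxic T cells and of proprioceptive sensory neurons, had a low to middling level. Its values were 4.73, 4.86, 5.03, 4.95 and 5.30 in denervated mice 1 to 5 and 4.73, 5.23, 4.82, 4.93 and 4.87 contralaterally. The groups covered nearly the same range, and the arrays that were highest came from mouse 5 on the denervated and mouse 2 on the contralateral side. The means were 4.97 ± 0.21 and 4.92 ± 0.19 (SD, n = 5 each), and the difference was 0.06 (95% confidence interval -0.21 to 0.32; adjusted p = 0.932 by limma). The difference turned to -0.03 without denervated array 5, and it was 0.08 without denervated arrays 2 and 3. The second probe set had a mean of 1.47 and a difference of -0.09. All 9 measured lymphocyte markers had means below 2, among them Cd3e, a chain of the T cell receptor complex, at 1.47 denervated and 1.48 contralateral.

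The start regions of the Runx genes are shown because Runx1 and Runx3 are paralogs that share a binding motif and a gene structure with an upstream and a downstream start; the difference between their responses was not tested. RefSeq (GRCm38.p6) lists 300 bases, 250 before and 50 after a gene's start, for 4 of the 7 members. Capitals mark TGTGGT, the core that Runx proteins bind, on either strand (ACCACA on the strand shown).
Runx1, upstream start, chr16:92826025-92826324, minus strand: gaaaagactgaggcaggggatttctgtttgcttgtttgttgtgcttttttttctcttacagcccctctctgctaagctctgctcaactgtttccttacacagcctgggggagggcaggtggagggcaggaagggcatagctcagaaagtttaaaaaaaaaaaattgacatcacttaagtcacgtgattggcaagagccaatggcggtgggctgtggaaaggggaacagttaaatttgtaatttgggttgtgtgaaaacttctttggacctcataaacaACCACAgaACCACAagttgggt
Runx3, upstream start, chr4:135120395-135120694, plus strand: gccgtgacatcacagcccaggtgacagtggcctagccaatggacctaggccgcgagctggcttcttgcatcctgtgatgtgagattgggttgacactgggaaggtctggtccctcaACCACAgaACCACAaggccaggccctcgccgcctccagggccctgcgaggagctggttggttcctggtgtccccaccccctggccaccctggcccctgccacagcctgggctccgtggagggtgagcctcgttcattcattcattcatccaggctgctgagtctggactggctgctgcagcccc
Each window holds 2 matches that start 8 bases apart, after the start in Runx1 (first bases at 29 and 37) and before it in Runx3 (at -134 and -126). Among all 32851 RefSeq windows, 16.8% hold at least 1 such match and 1.81% at least 2. The longest stretch that the 2 windows share is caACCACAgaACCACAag, 18 bases with the same capitals, which 4 of all windows hold. The windows of the downstream starts of Runx1 and Runx3 have 0 matches each. Such letters describe the sequence and do not show that a factor was bound, and the probe sets were not assigned to either start.

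Sp6, which in mice is needed for ameloblasts and for the normal number of teeth, was lower on average in the denervated incisors. Its values were 9.51, 9.16, 8.85, 9.33 and 9.48 in denervated mice 1 to 5 and 9.59, 9.61, 9.44, 9.28 and 9.70 contralaterally. Denervated arrays 2 and 3 lay below the whole contralateral range, and the other 3 lay inside it. The means were 9.26 ± 0.27 denervated and 9.52 ± 0.16 contralateral (SD, n = 5 each). The difference was -0.26 ± 0.13 (SE; 95% confidence interval -0.55 to 0.03), with adjusted p = 0.790 by limma. With the mouse as a block the interval was -0.50 to -0.02 and the adjusted p 0.485. By mouse the differences were -0.08, -0.45, -0.60, 0.05 and -0.22. Without denervated array 3 the mean difference was -0.16, and without denervated arrays 2 and 3 it was -0.09. A second probe set with a mean of 5.35 was lower on the denervated side in 5 of 5 mice, at 5.41, 4.73, 4.40, 5.41 and 5.55 against 5.72, 5.59, 5.43, 5.49 and 5.76, a mean difference of -0.50. The other 2 probe sets of Sp6 had means below 2 and differences of -0.01 and 0.00.

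Klf4 had values of 9.28, 8.80, 8.33, 8.99 and 8.95 in denervated mice 1 to 5 and 9.30, 9.14, 8.91, 8.89 and 9.09 in the contralateral incisors. As in Sp6, denervated arrays 2 and 3 were the lowest of all 10 arrays and the others lay within the contralateral range. The means were 8.87 ± 0.35 and 9.07 ± 0.17 (SD, n = 5 each), and the difference was -0.20 ± 0.16 (SE; 95% confidence interval -0.54 to 0.15; adjusted p = 0.826 by limma). By mouse it was -0.02, -0.34, -0.59, 0.10 and -0.13. Without denervated array 3 it was -0.06, without denervated array 1 it was -0.30, and without denervated arrays 2 and 3 it was 0.01. The second probe set, with a mean of 7.42, gave a difference of -0.27 and the same sign in 4 of 5 mice. Over the 10 arrays Klf4 and Sp6 had a Pearson correlation of 0.898, and of 0.618 over the 8 arrays without denervated arrays 2 and 3. These are descriptions of arrays that share mice and, within a mouse, tissue composition.

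The start region of Klf4 is printed for its GC boxes, GGGCGG on either strand (read as CCGCCC where it lies on the other strand), the motif bound by factors of the Sp and Klf families to which Klf4, Sp6 and Sp7 belong. Capitals mark the motif.
Klf4, chr4:55532426-55532725, minus strand: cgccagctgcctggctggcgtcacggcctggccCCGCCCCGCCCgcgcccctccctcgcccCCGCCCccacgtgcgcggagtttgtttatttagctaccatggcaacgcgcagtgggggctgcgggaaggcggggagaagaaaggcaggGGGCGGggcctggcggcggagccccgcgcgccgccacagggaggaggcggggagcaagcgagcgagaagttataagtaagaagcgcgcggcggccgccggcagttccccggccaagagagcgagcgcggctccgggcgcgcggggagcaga
Nfic, chr10:81427124-81427423, minus strand: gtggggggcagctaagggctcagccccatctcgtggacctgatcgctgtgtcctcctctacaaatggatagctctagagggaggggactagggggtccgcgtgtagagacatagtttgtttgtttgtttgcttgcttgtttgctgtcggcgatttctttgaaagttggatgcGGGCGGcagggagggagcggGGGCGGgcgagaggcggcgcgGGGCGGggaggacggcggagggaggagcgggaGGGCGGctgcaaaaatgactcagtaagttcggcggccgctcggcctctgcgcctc
The window of Klf4 holds 4 matches, of which the first 2 overlap by 1 base, and that of Nfic, shown for comparison, also holds 4. Of all windows 35.7% hold at least 1 GC box and 10.7% at least 3, so the motif is common at gene starts.

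Of the 14 measured dental epithelium markers 13 were lower in mouse 3. The list mean was lower there by -2.32. Enam, which encodes enamelin, was at -8.77, Ambn, which encodes ameloblastin, at -3.43 and Krt14, a basal keratin gene, at -2.12. Sp6 and Klf4 were lower by -0.60 and -0.59 in the same mouse. In mouse 2 the epithelial mean differed by -0.12, in which Odam, a gene of late ameloblasts that was higher by 3.04, stood against 11 of the 14 markers that were lower. Among those were Klk4 at -1.31 and Mmp20 at -1.01, which encode enamel proteases, and Enam at -0.98. Others of them differed far less, such as Krt14 at -0.19, Ambn at -0.15 and Epcam at -0.04. Odam, Klk4 and Epcam were chosen after their values were seen. Mmp20 is among the genes most like Runx1 over these same arrays, so it is no separate reading beside Runx1. In mouse 2 Sp6 was lower by -0.45, Klf4 by -0.34 and Runx1 by -1.59, and the odontoblast mean by -0.91. In mouse 5 all 14 epithelial markers were lower, with a list mean of -0.21. Sp6 differed there by -0.22, Klf4 by -0.13 and Runx1 by 0.09. Fewer markers were lower in mouse 1 (5 of 14) and mouse 4 (3 of 14), where the list mean was higher by 0.11 and 0.37. Of the 14 measured epithelial markers 13 were lower on average in the denervated incisors, while 55.8% of all genes were above 0. All 14 markers had means of 4 or more. These averages include denervated arrays 2 and 3, and the count was not taken without them. All 6 odontoblast markers were lower on average too, with differences from -0.48 to -0.09 and a median of -0.23. The odontoblast list mean differed by -0.17, -0.91, 0.03, -0.16 and -0.02 in mice 1 to 5. The part of either marker list in the differences of Sp6, Klf4 and Runx1 was not tested.

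Markers of other cells of the pulp were mostly higher in mice 2 and 3. The list means of the 12 macrophage markers were 5.53 to 6.28 per array denervated and 5.30 to 5.47 contralateral. All 12 markers were higher on average in the denervated incisors, though Itgam had a mean below 2 and differed by 0.06. Among them Ptprc, the leukocyte gene for CD45, differed by 0.41 ± 0.20 (SE), higher in 5 of 5 mice, and by 0.15 without denervated arrays 2 and 3. The list mean was higher in every mouse, by 0.72 and 0.90 in mice 2 and 3 and by 0.21 to 0.35 elsewhere. The means of 8 pericyte and smooth muscle markers were higher by 1.07 and 0.76 in mice 2 and 3 and differed by -0.19 to 0.15 in the other mice. Those of 8 endothelial markers were higher by 0.50 and 0.47 in mice 2 and 3 and differed by -0.12 to -0.02 in the other mice. Of 6 chondrocyte markers 4 were above and 2 below 0, with list means of 3.23 to 3.60 denervated and 2.55 to 3.66 contralateral, and Acan and Matn1 had means below 2. The 5 osteoblast and osteocyte markers had list means of 2.93 to 3.17 denervated and 2.96 to 3.31 contralateral, with Sost, Fgf23 and Mepe below 2. The part of these lists in the values of the members was not tested.

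**Figure D2:**
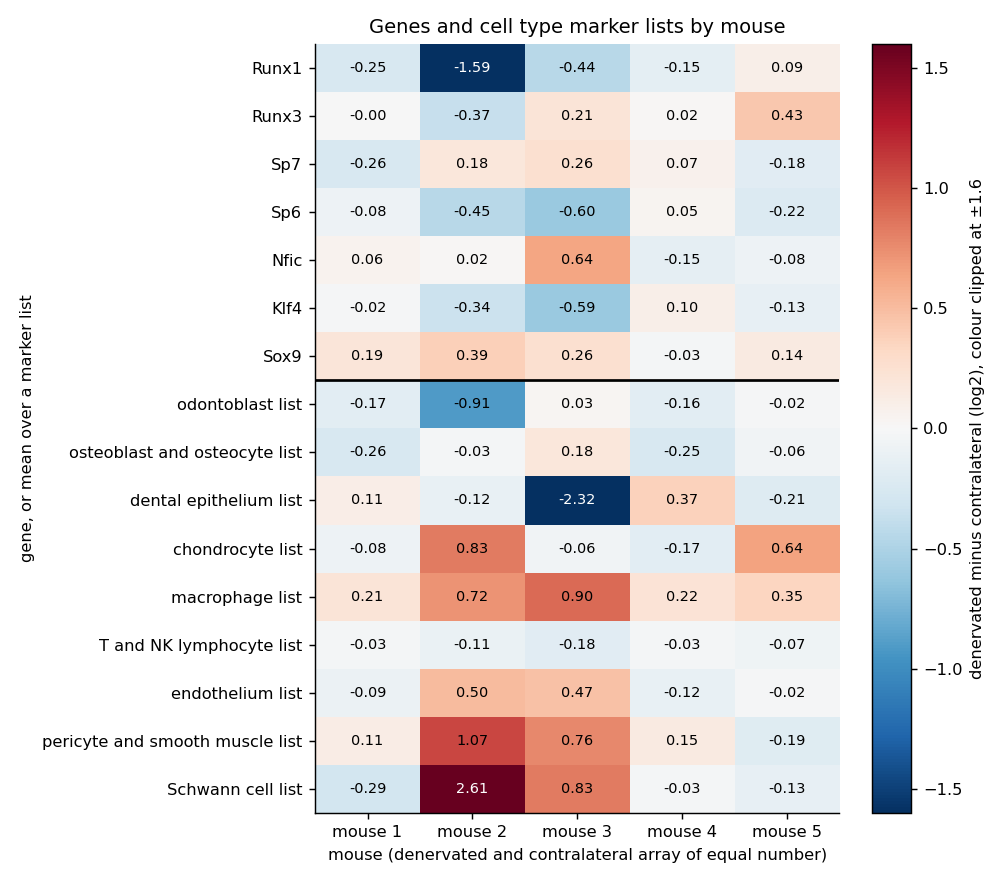
Denervated minus contralateral difference (log2, colour and number) of the 7 genes (above the line) and of the mean over each cell type marker list (below the line), by mouse. The largest value of Runx1, Sp6, Klf4 and of the epithelial, odontoblast, Schwann cell, vessel and macrophage lists is in mouse 2 or mouse 3, and mouse 4 has a difference of at most 0.15 in size in each of the 7 genes.

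Sp7, the osteoblast factor that acts downstream of Runx2 and is also made by odontoblasts, showed the smallest difference. Its values were 6.87, 7.17, 7.27, 7.10 and 6.93 in denervated mice 1 to 5 and 7.13, 6.99, 7.01, 7.02 and 7.11 contralaterally. The contralateral arrays spanned a narrow range inside that of the denervated arrays, with SDs of 0.17 denervated and 0.06 contralateral (n = 5 each). The means were 7.07 and 7.05, and the difference was 0.02 (95% confidence interval -0.17 to 0.20; adjusted p = 0.975 by limma). By mouse it was -0.26, 0.18, 0.26, 0.07 and -0.18, and it was -0.03 without denervated array 3, -0.01 without denervated array 2 and -0.09 without both. Sp7 has 1 probe set, so no second reading was at hand.

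Nfic, a member of the nuclear factor I family that in mice is required for root odontoblasts, had values of 7.98, 7.92, 8.22, 7.82 and 7.57 in denervated mice 1 to 5. The contralateral values were 7.92, 7.91, 7.59, 7.96 and 7.66. The denervated array of mouse 3 lay well above the contralateral range, that of mouse 1 just above it and that of mouse 5 just below it, and the other 2 lay inside. The means were 7.91 ± 0.24 and 7.81 ± 0.17 (SD, n = 5 each), with a difference of 0.10 (95% confidence interval -0.17 to 0.37; adjusted p = 0.884 by limma). The difference was 0.64 in mouse 3 and between -0.15 and 0.06 in the other mice, and without denervated array 3 the mean difference was 0.02. Without denervated arrays 2 and 3 it was -0.02. The other 4 probe sets of Nfic had means below 4 and differences between -0.06 and 0.23.

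Sox9 was the one member with an unadjusted p under 0.05 in limma's test without a mouse term, and its adjusted p was 0.790. Its values were 7.21, 7.22, 7.29, 7.08 and 7.19 in denervated mice 1 to 5 and 7.01, 6.83, 7.03, 7.11 and 7.05 contralaterally. The groups overlapped through mouse 4 alone, whose denervated array lay below its contralateral one. The means were 7.20 ± 0.08 and 7.01 ± 0.11 (SD, n = 5 each), and the difference of 0.19 ± 0.07 (SE; 95% confidence interval 0.03 to 0.35) is a fold of 1.14. An exact two-sided permutation over the 10 arrays gave p = 0.0159, where 0.00794 is the smallest it can give. When the signs of the 5 differences between the sides of a mouse were flipped, an exact two-sided test gave p = 0.125, with 0.0625 as the smallest possible. Those differences were 0.19, 0.39, 0.26, -0.03 and 0.14, and without denervated arrays 2 and 3 the mean difference was 0.15. A second probe set of nearly equal brightness had 7.25, 7.06, 7.24, 7.12 and 7.20 denervated and 7.12, 6.58, 7.27, 7.03 and 6.86 contralateral. Its mean difference was 0.20, and it was mouse 3 that lay below 0, at -0.03. The third, with a mean of 1.85, differed by 0.13.

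**Figure D3:**
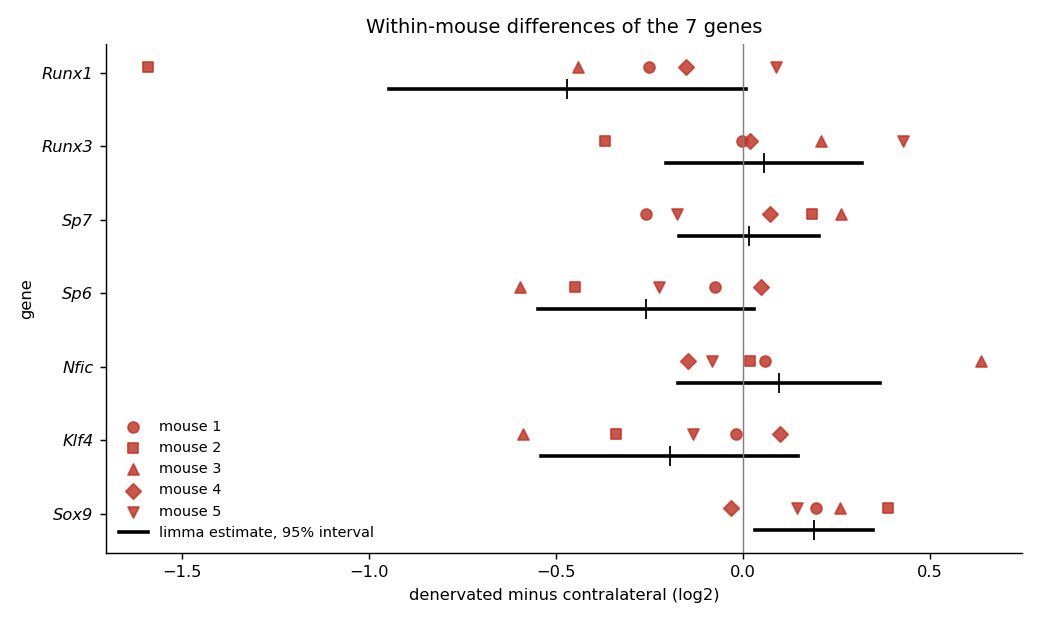
Within-mouse difference, denervated minus contralateral (log2, horizontal axis), of each gene in mice 1 to 5 (red symbols). Black bars give limma's mean difference and 95% confidence interval without a mouse term, so they do not measure the spread of the symbols. With the mouse as a block the interval was -0.50 to -0.02 for Sp6 and 0.01 to 0.37 for Sox9. The interval of Sox9, 0.03 to 0.35, lies above 0, that of Runx1 reaches from -0.95 to 0.01, and those of Runx3, Sp7, Nfic and Klf4 hold 0 well inside.

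**Figure D4:**
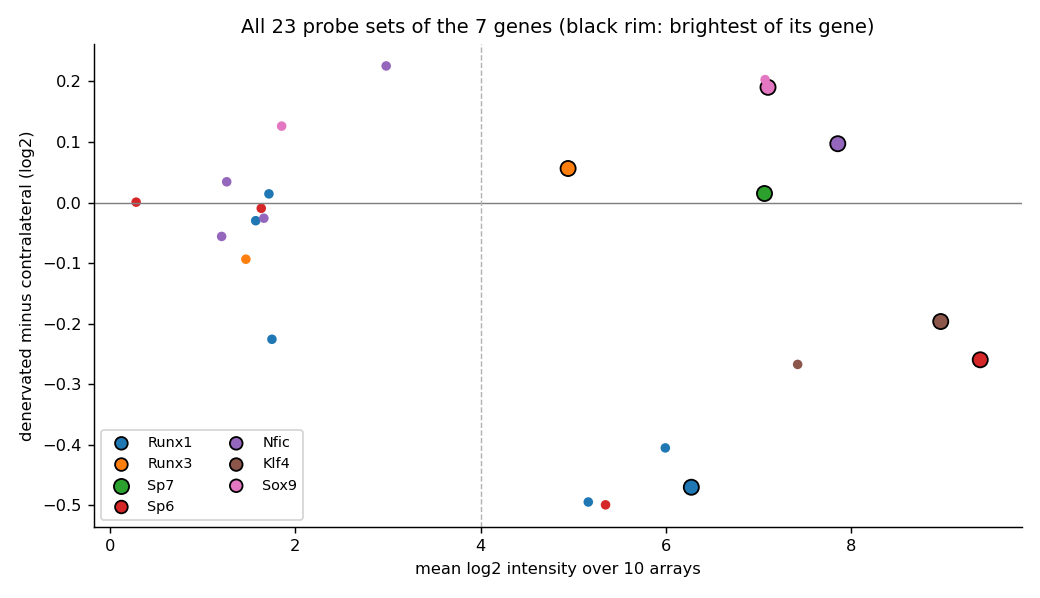
Mean log2 intensity over the 10 arrays (horizontal axis) and denervated minus contralateral difference (log2, vertical axis) of the 23 probe sets; large black-rimmed points are the brightest of each gene, and the dashed line marks a mean of 4. All 3 bright probe sets of Runx1 and both of Sp6 and of Klf4 lie below 0, and both bright ones of Sox9 lie at 0.19 and 0.20.

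The partners and regulators of Runx proteins gave no gene past the threshold, 0 of 22 measured, with or without the mouse as a block. Of these 13 were above and 9 below 0, with a median difference of 0.07, beside 55.8% of all genes above 0 and a median of 0.02. Cbfb, the partner subunit of all Runx proteins, had 8.78 ± 0.08 denervated and 8.84 ± 0.07 contralateral (SD, n = 5 each). Its difference was -0.07. Tle2, a Groucho corepressor that Runx proteins recruit, differed by 0.47 ± 0.20 (SE), higher in 4 of 5 mice. Twist2, which restrains Runx activity in bone precursors, differed by 0.49 ± 0.22, higher in 5 of 5 mice by 0.00 to 1.02. Without denervated arrays 2 and 3 these differences were 0.17 for Tle2 and 0.25 for Twist2, and that of Cbfb was -0.11. Of the 22 genes 5 differed in the same direction in all 5 mice, each of them higher, beside the 10.4% of all genes that did so in either direction.

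Relatives of the members in the Sp, Klf, Nfi and Sox families likewise gave 0 of 23 past the threshold. There were 14 above and 9 below 0, with a median of 0.06 and differences from -0.27 to 0.30. The nuclear factor I genes Nfia, Nfib and Nfix, the closest relatives of Nfic, differed by 0.30 ± 0.31, -0.19 ± 0.10 and -0.11 ± 0.10 (SE). Without denervated arrays 2 and 3 they differed by -0.17, -0.32 and -0.01, so that the sign of Nfia turned. Klf6, a factor of growth arrest and injury responses, had 7.32 ± 0.22 denervated and 7.07 ± 0.23 contralateral (SD, n = 5 each), higher by 0.25 on average and in 5 of 5 mice.

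Bone and dentin genes that Runx2 and Sp7 are known to regulate had 6 members above and 8 below 0 among 14 measured, a median of -0.05, and 0 past the threshold; Bglap, the osteocalcin gene, is not analysed here. Dspp, which encodes the main phosphoprotein of dentin, had 12.07 ± 0.14 denervated and 12.25 ± 0.08 contralateral (SD, n = 5 each). Col1a1, which encodes type I collagen, had 12.98 ± 0.15 against 13.07 ± 0.05. Ibsp, the bone sialoprotein gene, differed by 0.23 ± 0.30 (SE), and Dmp1, a matrix phosphoprotein gene of odontoblasts and osteocytes, by -0.48 ± 0.43. Mouse 2 carried the value of Dmp1, with a difference of -2.55, and without denervated arrays 2 and 3 it was -0.02. Vdr, the vitamin D receptor gene, had 6.47, 6.42, 6.00, 5.72 and 5.60 in denervated mice 1 to 5 and 6.03, 5.87, 5.49, 5.29 and 5.30 contralaterally. Every denervated array was higher than its partner, by 0.44, 0.55, 0.51, 0.43 and 0.30, while mice 1 and 2 had higher levels than mice 4 and 5 on both sides. The mean difference was 0.45, with an adjusted p of 0.790 by limma without a mouse term. In the blocked fit the adjusted p was 0.234, which other genes shared and no gene went below.

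Cartilage genes under the control of Sox9 covered a wide range of intensities, with 6 of 14 members at a mean below 2 and 5 at a mean of 4 or more, and 0 passed the threshold. Of the 14 members 9 were above and 5 below 0, with a median of 0.07. Col2a1, the collagen gene of cartilage, had 2.83 ± 0.36 denervated and 2.93 ± 0.16 contralateral, and Acan, the aggrecan gene, 1.62 ± 0.55 and 1.21 ± 0.58 (SD, n = 5 each). The difference of Col2a1 was 0.04 without denervated arrays 2 and 3. Col9a2, which encodes a chain of collagen IX, had 6.83, 7.54, 7.18, 6.42 and 6.31 in denervated mice 1 to 5 and 6.56, 6.10, 6.39, 6.37 and 5.13 contralaterally. It was higher on the denervated side in 5 of 5 mice, by 0.05 to 1.44, with adjusted p = 0.790 by limma. The mean difference was 0.75, and 0.41 without denervated arrays 2 and 3. Matn1, a cartilage matrix gene, differed by -0.18 at a level below 1.

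**Figure D5:**
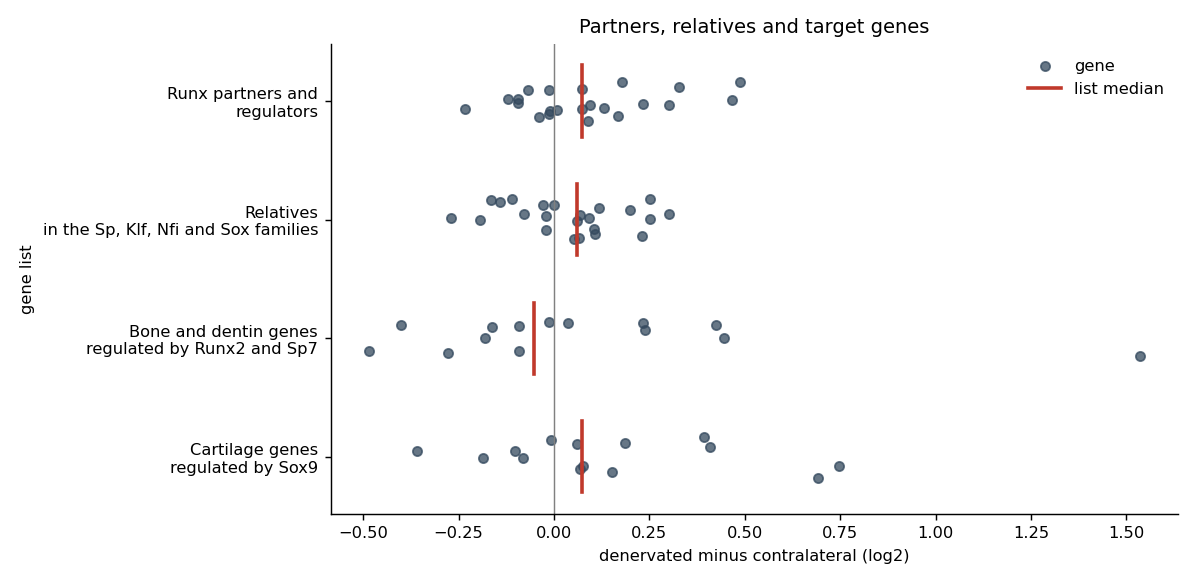
Denervated minus contralateral difference (log2, horizontal axis) of each measured gene (points) of the 4 lists (rows), with the list's median as a red line. The medians are 0.07, 0.06, -0.05 and 0.07 from top to bottom, and the far point at 1.54 in the third row is Mmp13.

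The genes most like each member were taken as the 3 with the highest Pearson correlation over the 10 arrays among 7777 genes with a mean of 4 or more. For Runx1 these were Relt (0.937), Mmp20 (0.903), the enamelysin gene, and Kdm5b (0.896), and without denervated arrays 2 and 3 the values were 0.739, 0.665 and 0.536. For Sp6 they were Spns2, Nipal3 and Nab1 at 0.970, 0.961 and 0.959, or 0.909, 0.884 and 0.852 over the 8 arrays. Klf4 was most like Hunk (0.947), Prkd3 (0.939) and Dnajc5 (0.934), at 0.774, 0.798 and 0.721 over the 8 arrays. Sox9 was most like Cep68 (0.916), Wdr77 (0.911) and Cdh11 (0.908), a cadherin gene of mesenchyme and osteoblasts, at 0.874, 0.915 and 0.903 over the 8 arrays. Sp7 was nearest to Cebpzos, Sike1 and Rhog at 0.928 to 0.912, Nfic to Tysnd1, Pard3 and Ap1m1 at 0.955 to 0.926, and Runx3 to Dio2, Marveld1 and Nipbl at 0.887 to 0.792. The arrays come from 5 mice and share tissue composition, and the best of 7777 correlations over so few arrays is high for any gene.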

How the data were processed

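The labels' protocols state that total RNA was labelled with biotin for expression arrays. The authors deposited 1 log2 intensity for each probe set on each array. The submitters' processing notes name RMA (background correction, normalization, probe summary) with no version; other settings are not given in the sources used here. That the scale is log2 was read off the values. The values were used as deposited, without detection calls. After 64 control probe sets were left out, probe sets with 1 symbol gave 18193 genes, each by its brightest probe set. Denervated and contralateral arrays were compared with limma 3.58.1 (lmFit, eBayes) in R 4.3.3, with Benjamini-Hochberg adjustment over all genes and a threshold of 0.05. The fit was run on simulated data with independent noise on each array. Those data held no mouse effect and no outlying arrays, so the run does not test the fit for these. Precision is limited by 5 arrays a group (median standard error 0.10).

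Equal numbers were taken as 1 mouse: per the labels' design text, 5 mice gave a denervated and a contralateral incisor. Deviations from the group means correlated at 0.18 to 0.57 in same-numbered pairs and at -0.41 to 0.22 in the others, over genes. Of the 5 denervated arrays 4 correlated best with the contralateral array of their own number. The labels do not say whether arrays of a group were processed together.

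The members and gene lists were chosen with earlier results of these data known. Named are all members, 3 genes most like each, the 2 genes with the smallest p of each of the 4 lists of partners, relatives and regulated genes, and a fixed set that includes markers; some genes of the lists are not analysed here. A few further genes were chosen after their values were seen, and the text says so where they appear. Alternatives were the mouse as a block, arrays or mice left out, all probe sets of a gene averaged, quantile normalization, a filter at a mean of 4 and a trend in eBayes.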

Additional observations from a re-analysis of the deposited data

Results flagged for a closer look

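The within-mouse difference of Nfic in mouse 3, 0.64, lay far from those of the other 4 mice, the nearest of which was 0.06. It was the one case among 21 sets of 5 values checked (the denervated values, the contralateral values and the differences of each member), a number of sets in which chance alone gives about 1 in 20. The denervated array of mouse 3 was also the lowest in epithelial markers, and the part of that in the difference of Nfic was not tested.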

How the results depend on the processing

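Over 22 alternatives per member, Runx1, Sp6 and Sox9 kept their direction in all, and no member passed the threshold in any; the smallest adjusted p was 0.351, for Sp6. The differences ranged from -0.61 to -0.11 for Runx1, from -0.34 to -0.08 for Sp6 and from 0.10 to 0.25 for Sox9. Klf4 was at 0.00909 without denervated arrays 2 and 3 and below 0 otherwise. Sp7 reached -0.0201 with quantile normalization, -0.0868 without denervated arrays 2 and 3 and -0.12 without mice 2 and 3 under the replicate block, and lay between -0.0453 and 0.0853 with 1 array or mouse left out. Nfic was at -0.0159 without denervated arrays 2 and 3, at -0.0568 without mice 2 and 3, and between -0.0377 and 0.18 with 1 array or mouse left out. Runx3 was at -0.0186 with the mean of its probe sets and -0.00304 with quantile normalization, and between -0.0369 and 0.16 with 1 array or mouse left out. Among other genes with a printed mean difference, those of Nfia (-0.17), Mmp13 (-0.80) and Col2a1 (0.0386) turned without denervated arrays 2 and 3. For these genes, and without mice 2 and 3 for the members, the setting was chosen after seeing the data. Leaving out denervated arrays 2 and 3 was planned for the members, but with earlier results of these data known. The cause of these turns was not tested.

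The number of members with an unadjusted p under 0.05 was 1 in the fit reported, 2 with the replicate block, with quantile normalization or with a trend, 0 without denervated arrays 2 and 3 or without mice 2 and 3, and 0 to 3 with 1 array or mouse left out. Sox9 was among them in 13 of 22 alternatives and was lost, among others, without denervated array 3 and without contralateral array 2. With the mean of probe sets 1 member, Runx1, differed in the same direction in every mouse. Over all genes 0 passed the threshold, or 1 when mouse 4 was left out under the replicate block. Probe sets with low values carry little signal over background, so their differences are compressed.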

Other observations

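Mmp13, which encodes collagenase 3 of bone and cartilage and is a known target of Runx2, was chosen after its values were seen. Its log2 values were 6.48, 10.59, 10.95, 3.01 and 5.31 in denervated mice 1 to 5 and 9.98, 3.58, 3.04, 2.72 and 9.35 in the contralateral incisors. The gene was thus high on the contralateral side in mice 1 and 5, high on the denervated side in mice 2 and 3 and low on both sides in mouse 4. The differences were -3.50, 7.01, 7.91, 0.29 and -4.03, and the mean difference of 1.54 ± 1.89 (SE) lay within this spread and was -0.80 without denervated arrays 2 and 3. Ibsp, the bone sialoprotein gene, differed by -0.76, 0.19, 1.25, -0.28 and 0.78 and Sp7 by -0.26, 0.18, 0.26, 0.07 and -0.18 in mice 1 to 5.

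Cebpb, a leucine zipper factor that acts with Runx2 in bone cells, was also chosen after its values were seen. It had 9.07 ± 0.33 denervated and 8.75 ± 0.42 contralateral (SD, n = 5 each) and was higher on the denervated side in 5 of 5 mice, by 0.15 to 0.45. The mean difference was 0.33, and 0.21 without denervated arrays 2 and 3.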
